A study of Mus musculus with 16 samples.

Results

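Genes of the NRF2 antioxidant and glutathione programme, 10 of the 22392 gene symbols in the count table, were followed in mouse hepatoma cells that lack exon 5 of Eef1d. They were the transcription factor gene Nfe2l2, the glutamate-cysteine ligase genes Gclc and Gclm, the glutathione transferase gene Gstm1, the thioredoxin system genes Srxn1, Txnrd1 and Txn1, the NADPH-producing G6pdx, the quinone reductase gene Nqo1 and the heme oxygenase gene Hmox1. Members were found by symbol. The 10 genes have 21 of the 67139 transcripts in the table, and each gene is represented by the transcript with the largest sum of counts over the 16 libraries.

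NRF2, the product of Nfe2l2, is a basic leucine zipper factor that is held at a low level by KEAP1, which hands it to a CUL3 ubiquitin ligase. When the cysteines of KEAP1 are modified by electrophiles or oxidants, NRF2 accumulates, pairs with small MAF proteins and binds antioxidant response elements near genes for glutathione synthesis, thioredoxin reduction, NADPH supply and detoxification. The liver is a main site of these reactions, and its glutathione is used both against peroxides and in the conjugation of xenobiotics.

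Hepa1-6 cells, a line from a mouse hepatoma, were analysed as unedited wild type (WT) and as 3 clones, KO1, KO2 and KO3. Each clone has a CRISPR deletion of exon 5 of Eef1d, which encodes the delta subunit of translation elongation factor eEF1, and was grown from a single cell by limiting dilution. The deletion was homozygous in each. KO1 and KO2 were made with the same pair of guides and KO3 with another pair that shared 1 guide. All lines were kept in the same medium, and the labels name no oxidant or electrophile. RNA-seq and Ribo-seq, which counts the mRNA fragments that ribosomes protect (footprints), were made from the same lysates, with 2 replicates per line. The paper's methods call the 2 Ribo-seq replicates of its metagene plot biological. Nothing in the labels says whether they were separate cultures, so the p-values measure the spread between these libraries. A change that belongs to the deletion and one that belongs to 1 clone cannot be told apart within a clone. All 3 clones were compared with the same 2 WT lysates.

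The genotype labels were checked on Eef1d first. Exon 5 is the 72-base, 24-codon exon at chr15:75900691-75900762 of GRCm38, on the minus strand. It is the only coding exon in which transcript ENSMUST00000154584.8, which has it, and transcript ENSMUST00000116440.8, which does not, differ, so the difference between their counts comes from reads at the exon and its junctions. For WT cells, RNA-seq gave 2386 and 2582 counts on the form with exon 5, against 2057 and 2222 on the form that lacks it. The order was turned in all 6 clone libraries, with 1897 against 2072 and 1717 against 1893 counts in KO1, 1953 against 2175 and 2237 against 2467 in KO2, and 1515 against 1644 and 1497 against 1617 in KO3. In footprints the transcript with exon 5 exceeded the other by 124 and 89 counts in WT and was below it in every clone library. The libraries thus matched their labels.

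The labelled cell type was read from marker genes. Of 23 hepatocyte markers 22 were in the table, 12 had at least 10 counts in every RNA-seq library, and the most abundant was Alb at a mean of 352 CPM (counts relative to the TMM-scaled size of the library), while Apoc3 and Fgg had no count in any of them. Of 10 leukocyte markers 3 reached 10 counts in every RNA-seq library, the most abundant being Cd14 at 7.20 CPM, whereas Adgre1, Cd3e and Tyrobp were at 0. None of 8 endothelial markers did so, with Pecam1 highest at 0.384 CPM and Emcn, Lyve1 and Tek at 0. Of 10 fibroblast markers 2 reached 10 counts in every RNA-seq library, with Dcn the most abundant at 379.7 CPM, above Alb, whereas Fap and Thy1 were at 0. The summed hepatocyte markers were 1054 and 1005 CPM in WT, 566 and 563 for KO1, 837 and 798 for KO2 and 1525 and 1608 for KO3. The sum was highest in KO3 and lowest in KO1 and is carried by abundant genes such as Alb. Gene by gene, 6 of the 13 tested were called lower in KO3 and 5 higher, with a median log2 change of -0.01. These calls include Ambp, which passed the filter on low counts through 1 line only. The part of these markers in the results was not tested. In such bulk samples, fewer cells of a kind and less RNA per cell cannot be told apart.

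The members lie on 7 chromosomes of GRCm38. Nfe2l2 (chr2:75675513-75704641) and Srxn1 (chr2:152105524-152111376) are on the minus and plus strand of chromosome 2, and Gclm (chr3:122245557-122270732, plus) and Gstm1 (chr3:108012255-108017973, minus) are both on chromosome 3. Nqo1 (chr8:107388225-107403206, minus) and Hmox1 (chr8:75093621-75100589, plus) are on chromosome 8. Gclc is at chr9:77754535-77794485 (plus), Txnrd1 at chr10:82833951-82897712 (plus), Txn1 at chr4:57943373-57956411 (minus) and G6pdx at chrX:74409483-74429194 (minus). The values describe only their coding exons, since reads were counted on coding sequence and left out its first and last 5 codons.

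Because these genes are grouped by a shared regulatory element, the promoters were searched for its core, TGACNNNGC, on both strands. RefSeq promoters of GRCm38.p6, from 250 bases before to 50 bases after the start, were at hand for 8 members and not for Gclc and Hmox1. The core was found for 5 of the 8 genes, and for 14.0% of all 27025 genes with promoters of that length (12.4% of 32851 promoters). These 5 windows of 27 bases are shown since they hold the matches, each 5′ to 3′ on the strand that carries the core, with the core in capitals. Nfe2l2 has it on its own strand and the other 4 on the opposite strand.
Nfe2l2 (chr2:75704886-75704912, minus strand): cagcccaccTGACTCCGCcatgccccg
Gclm (chr3:122245414-122245440, minus strand): cgtgagagtTGACGGTGCgcccgggag
Srxn1 (chr2:152105543-152105569, minus strand): gtctcactcTGACCTAGCtgcccactg
Txnrd1 (chr10:82859105-82859131, minus strand): gtgtcagaaTGACAAAGCaaaaatcca
G6pdx (chrX:74428920-74428946, plus strand): cgtgtgcttTGACTGAGCtgacccgcc
The Txnrd1 match is in 1 of its 3 promoters. It lies inside the span of the counted transcript, which starts at chr10:82833951, and so is not in the promoter of that transcript. The matches of Srxn1 and G6pdx also lie within the spans of their counted transcripts. No match was found in the windows of Nqo1, Txn1 and Gstm1, which says only that these letters are not in those windows.

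Coding sequence shared with other genes was found for 3 members, which limits how well their reads can be assigned. Of all 30-base runs of the Gstm1 coding sequence, 64.3% are also found in transcripts of 7 other genes, Gstm2, Gstm3 and Gstm6 among them. The share was 26.2% for Txn1, all with the pseudogene Txn-ps1, and 20.1% for G6pdx, all with G6pd2. No shared run was found for the other 7 members. The related genes G6pd2 and Gstm3 were counted almost only in footprints. G6pd2 had 0 to 2 counts per RNA-seq library and 29 to 105 per Ribo-seq library, and Gstm3 had 0 to 4 and 21 to 154. The footprint levels and the translation of Gstm1, G6pdx and Txn1 are uncertain to that extent, and the part of shared reads in them was not tested.

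In WT cells the 10 genes spanned more than 3 orders of magnitude of mRNA per coding length. Txn1, which encodes cytosolic thioredoxin, stood highest, with 1794 units of RNA per length (CPM per codon, scaled to the same sum over all genes in each library) and above 98.9% of the 9634 genes detected. Txnrd1, the selenoenzyme that reduces it, followed at 138, then Gclm, the modifier subunit of glutamate-cysteine ligase, at 95.4, Nfe2l2 at 75.5, Gstm1 at 65.3 and G6pdx at 33.3. The median of all detected genes was 28.2. Srxn1, Gclc and Hmox1 followed at 22.7, 21.3 and 20.2. Srxn1 was above Hmox1 in both WT libraries, and Gclc overlapped with both of them. Nqo1 was lowest, at 1.24, with 9 and 15 raw counts in the 2 WT RNA-seq libraries.

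In WT, footprints per RNA differed among the members as well. Translation efficiency (TE), the ratio of footprint CPM to RNA CPM, had a median of 0.931 over detected genes. Of the 9 members with enough counts it was highest for Gstm1, with 2.5 and 2.36 in the 2 lysates, above 97.7% of genes. Hmox1 (1.74 and 1.73), G6pdx (1.5 and 1.6) and Txn1 (1.45 and 1.49) were also above the median, and Gclm reached 1.28 and 1.34. The ratios and ranks of Gstm1, G6pdx and Txn1 are uncertain, since these genes share coding runs with others. Nfe2l2 was above the median as well, at 1.10 and 1.06. Gclc, the catalytic ligase subunit, was below it at 0.728 and 0.744, as were Txnrd1 at 0.708 and 0.701 and Srxn1 at 0.850 and 0.834.

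The clones were then compared with WT to ask how RNA of these genes stood without exon 5. In KO1, Srxn1, Txnrd1 and Txn1 rose and Hmox1 and Gstm1 fell. In KO2 Txnrd1 and Gstm1 fell. In KO3 Nfe2l2, Srxn1 and G6pdx rose, while Gclc, Gclm, Hmox1 and Txn1 fell. Nqo1, which has few counts, was called higher in KO1 and lower in KO3. Every member passed the test in at least 1 clone, 6 of them in 2 clones and none in all 3, and 3 members passed in opposite directions in different clones. Of all 11727 genes tested, 69.7% passed in at least 1 clone, 23.9% in 2 clones, 7.35% in all 3 and 18.8% in opposite directions. Nqo1 passed the filter on low counts only through the line where it is high, KO1 in the comparison of KO1 and WT in that of KO3. Without it 5 of 9 members passed in 2 clones and 2 in opposite directions. These calls are from edgeR's quasi-likelihood test with Benjamini-Hochberg adjustment over all transcripts, at an adjusted p under 0.05.

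The counts of members are read against those of the whole table. As members were chosen with earlier results of these data known, a larger share or change than that of all genes is only a description. In KO1 6 of 10 members were called, 4 higher and 2 lower (5 of 9 without Nqo1, 3 and 2), where 46.7% of genes were, 23.0% higher and 23.7% lower. In KO2 there were 2 of 10 members, both lower, with 19.9% of genes, 10.9% higher and 8.96% lower. In KO3 there were 8 of 10 members, 3 higher and 5 lower (7 of 9 without Nqo1, 3 and 4), with 44.0% of genes, 21.8% higher and 22.3% lower. The median absolute change of the members, on the log2 scale, was 0.43 for KO1, 0.20 for KO2 and 0.47 for KO3, beside 0.26, 0.16 and 0.24 over all genes tested. Signed medians were 0.14, -0.09 and -0.19, beside 0.02, -0.01 and -0.01. These medians include Nqo1. Without it the signed median was 0.07 in KO1, the value of Nfe2l2, and -0.12 in KO3, that of Txnrd1. The absolute one was then 0.39 in KO1, from Txnrd1, and 0.47 in KO3, from Srxn1.

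**Figure D1:**
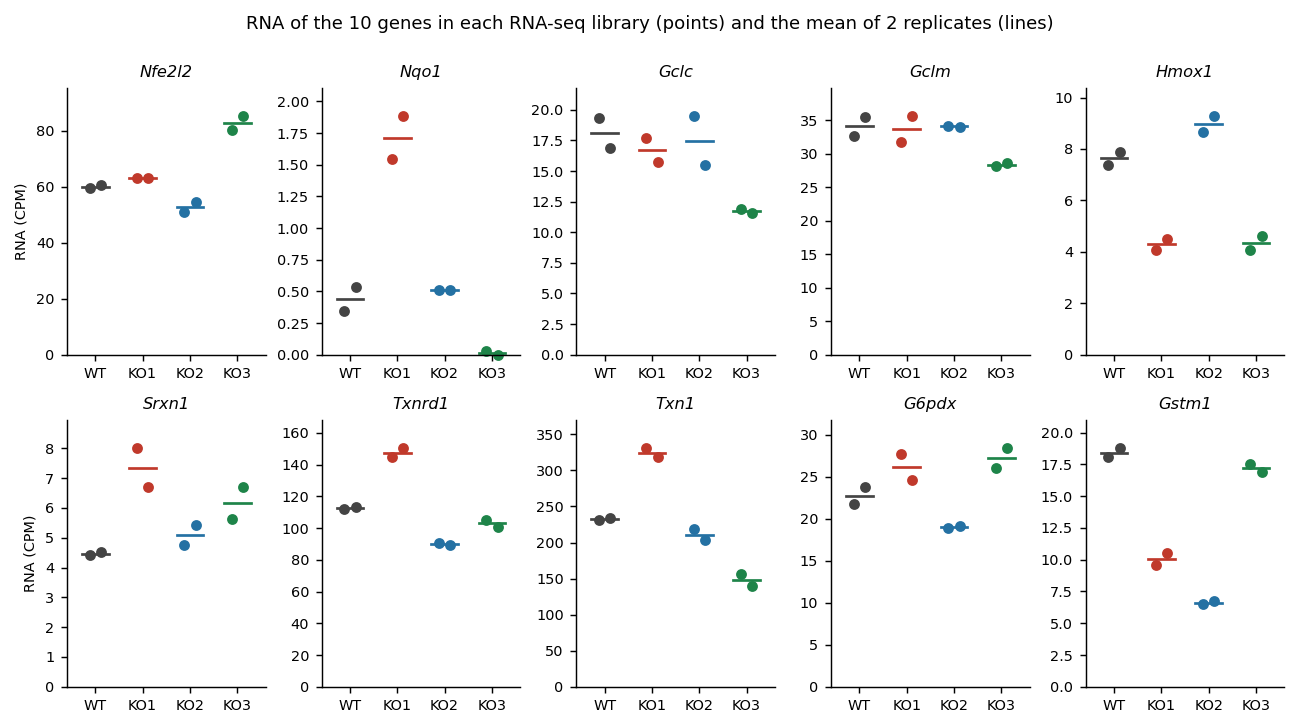
RNA of the 10 members in each of the 8 RNA-seq libraries, 1 panel per gene, in CPM on the vertical axis, with the 4 lines along the horizontal axis. Points are single libraries and lines the mean of 2 replicates; Srxn1 lies above WT in all 3 clones (4.42 and 4.52 CPM in WT) and Gstm1 below it (18.1 and 18.8 CPM in WT).

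The plot of RNA by library shows each member in turn, beginning with the factor itself. Nfe2l2 had 59.5 and 60.5 CPM in WT, 63.0 and 63.3 in KO1, then 51.1 and 54.5 in KO2 and 80.4 and 85.2 in KO3. No clone overlapped with WT, and KO3 was set apart by the widest gap. The change in KO3 was 0.47 on the log2 scale (SE 0.06, adjusted p = 6.51e-09). Those in KO1 (0.07, adjusted p = 0.363) and KO2 (-0.18, adjusted p = 0.0671) missed the threshold.

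Glutathione synthesis starts with glutamate-cysteine ligase. Its catalytic subunit gene Gclc had 19.3 and 16.9 CPM in WT, 17.7 and 15.7 in KO1, 19.5 and 15.5 in KO2, with 11.9 and 11.6 in KO3. The KO3 libraries lay below all others, and those of KO1 and KO2 overlapped with WT. Gclc fell by 0.62 in KO3 (SE 0.10, adjusted p = 2.09e-06). Gclm, the modifier subunit, had 32.7 and 35.6 CPM in WT, 31.8 and 35.6 in KO1, 34.1 in both KO2 libraries and 28.2 and 28.6 in KO3. As for Gclc, only the KO3 libraries were separate from WT. Gclm fell by 0.26 in KO3 (SE 0.08, adjusted p = 0.00609), and without WT replicate 2 the adjusted p was 0.155.

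Gstm1, a mu-class transferase that joins glutathione to electrophiles, had 18.1 and 18.8 CPM in WT, 9.55 and 10.5 for KO1, 6.49 and 6.71 for KO2 and 17.5 and 16.9 for KO3. All 6 clone libraries were below WT, those of KO3 by the least. The log2 change was -0.88 in KO1 (SE 0.11, adjusted p = 4.29e-10) and -1.48 in KO2 (SE 0.12, adjusted p = 9.66e-10). In KO3 it was -0.09 (adjusted p = 0.464).

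In the thioredoxin system the clones did not move together. Txn1 had 232 and 233 CPM in WT, 330.5 and 319 in KO1, then 218 and 204 in KO2 and 156 and 140.4 in KO3. The 4 lines did not overlap, with KO1 highest and KO3 lowest. Txn1 rose in KO1 by 0.48 (SE 0.04, adjusted p = 3.9e-15) and fell by 0.65 in KO3 (SE 0.05, adjusted p = 6.11e-16). In KO2 the value was -0.14 (adjusted p = 0.0584).

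Txnrd1 had 112 and 113 CPM in WT, 145 and 150.2 in KO1, 90.9 and 89.4 in KO2, with 105 and 101 in KO3. KO1 was again above WT, and both KO2 and KO3 were below it. Txnrd1 rose by 0.39 in KO1 (SE 0.05, adjusted p = 1.75e-09) and fell by 0.32 in KO2 (SE 0.06, adjusted p = 0.000193). The KO3 value of -0.12 missed the threshold (adjusted p = 0.064). Thus the reductase and its substrate Txn1 both rose in KO1, and in KO2 and KO3 only 1 of the pair passed the test.

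Srxn1 encodes sulfiredoxin, which repairs overoxidised peroxiredoxins, and was the member that lay above WT in every clone library. It had 4.42 and 4.52 CPM in WT, 8.0 and 6.69 for KO1, 4.76 and 5.42 for KO2 and 5.62 and 6.71 for KO3. It rose in KO1 by 0.72 (SE 0.16, adjusted p = 0.000129) and in KO3 by 0.47 (SE 0.16, adjusted p = 0.0168). The KO2 value of 0.19 did not pass (adjusted p = 0.495). The KO3 call was lost with DESeq2 and without WT replicate 1, WT replicate 2 or KO3 replicate 2.

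G6pdx, whose enzyme opens the pentose phosphate pathway and yields NADPH, had 21.7 and 23.7 CPM in WT, 27.8 and 24.6 in KO1, then 18.9 and 19.1 in KO2 and 26.1 and 28.4 in KO3. KO1 and KO3 were above WT and KO2 below it. The change passed the test in KO3 (0.26, SE 0.09, adjusted p = 0.0116), though not with DESeq2 or without WT replicate 1 or KO3 replicate 2. It missed it in KO1 (0.20, adjusted p = 0.0547) and KO2 (-0.25, adjusted p = 0.0658). Both passed with the replicate block, that in KO1 also without KO1 replicate 2, and that in KO2 also with all libraries in 1 fit.

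Hmox1 breaks down heme and is held down by BACH1, which binds the same elements as NRF2. It had 7.38 and 7.89 CPM in WT, 4.09 and 4.49 in KO1, 8.65 and 9.27 in KO2, with 4.09 and 4.62 in KO3. KO1 and KO3 stood together below WT, and KO2 stood above it. Hmox1 fell by 0.84 in KO1 (SE 0.15, adjusted p = 8.98e-06) and by 0.81 in KO3 (SE 0.15, adjusted p = 1.97e-05). The value in KO2 was 0.24 (adjusted p = 0.255).

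Nqo1, the NAD(P)H quinone reductase often used as a readout of NRF2, had few counts in any line. There were 9 and 15 raw RNA counts in WT, 42 and 47 for KO1, 13 and 15 for KO2 and 1 and 0 for KO3. KO2 overlapped with WT in CPM, KO1 was above and KO3 below. The log2 change in KO1 was 1.93 (SE 0.40, adjusted p = 1.97e-05). As the gene entered that test only through KO1, and the test of KO3 (adjusted p = 0.000274) only through WT, both calls are given as a description. From the summed counts of 24 and 1, RNA of Nqo1 was 26.4 times as high in WT as in KO3, with an exact 95% interval of 4.31 to 1086 that covers counting error only.

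Across the 8 RNA-seq libraries, Pearson's r of log2(CPM + 0.1) was lowest between Hmox1 and G6pdx (-0.893) and highest between Nqo1 and Txn1 (0.972), with a median of 0.13 over the 45 pairs of members. The genes outside the list with the pattern most like that of Nqo1, of 10614 genes with at least 10 counts in each of the 8 libraries, were Isy1 (r = 0.998), Zfp385a, Atp6v1g1, Cebpz and Usp36 (r = 0.991). Isy1 had mean levels of 32.5 CPM in WT, 46.2 in KO1, 34.4 in KO2 and 21.0 in KO3. Levels of Nqo1 in KO3, from 1 and 0 counts, are set mostly by the added 0.1 CPM. These correlations describe 4 lines with 2 libraries each, which share their line, and carry no test.

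**Figure D2:**
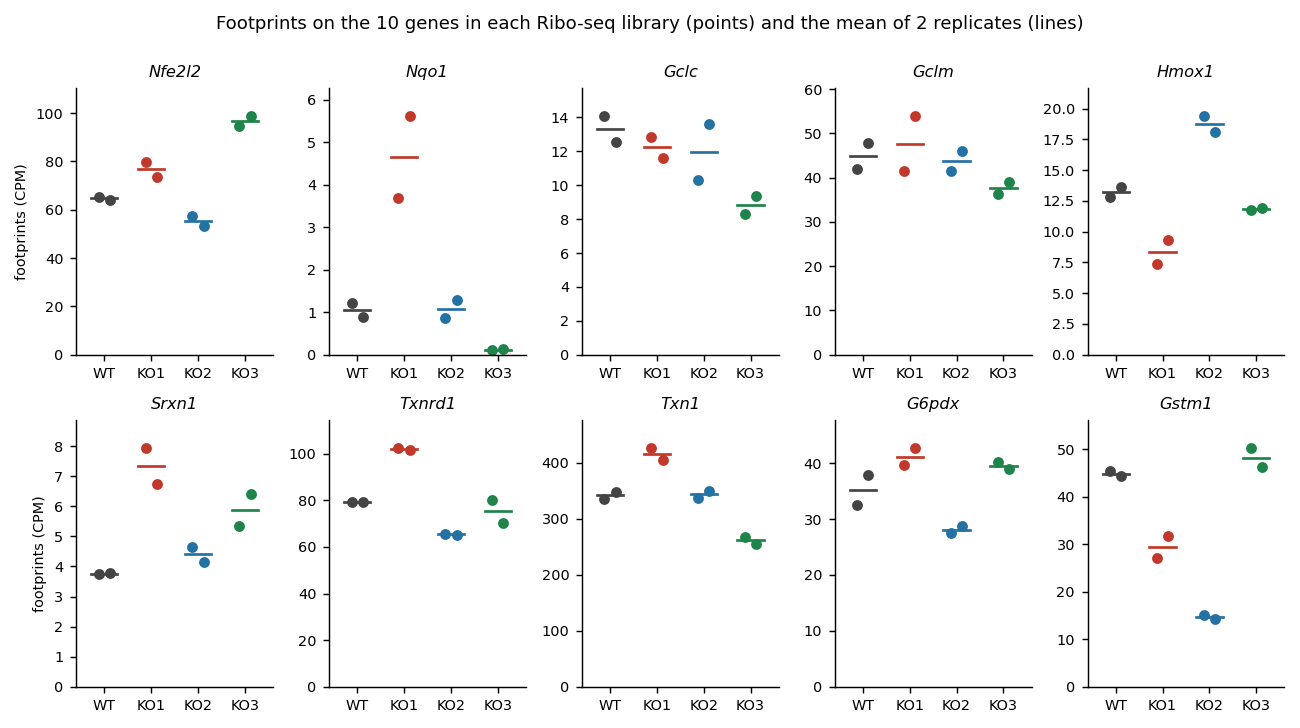
Footprints of the 10 members in each of the 8 Ribo-seq libraries, 1 panel per gene, in CPM on the vertical axis and with the 4 lines along the horizontal axis. Points are single libraries and lines the mean of 2 replicates; as in RNA, Nfe2l2 is highest in KO3 (94.5 and 98.6 CPM) and Gstm1 lowest in KO2 (15.1 and 14.4 CPM).

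Footprints were compared next, to see whether ribosomes on these mRNAs followed their level. In KO1 7 of 10 members were called (6 of 9 without Nqo1, which entered that test only through the KO1 libraries), where 26.5% of genes were, and in KO2 and KO3 3 of the 9 tested, beside 11.0% and 29.0% of genes. Nqo1 was not tested in KO2 and KO3 because its footprint counts were too low. Nfe2l2, Srxn1, Txnrd1 and Txn1 rose in KO1 and Hmox1 and Gstm1 fell. In KO2 Hmox1 rose and Txnrd1 and Gstm1 fell. Nfe2l2 rose in KO3, where Gclc and Txn1 fell.

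Ribo-seq was shallower than RNA-seq, with 2604223 counts in the smallest library, KO1 replicate 2, and 11147904 in the largest, KO1 replicate 1, against 24726706 to 30748268 in RNA-seq. A footprint count of a low gene is less certain for that reason. Nfe2l2 had 65.4 and 63.9 footprint CPM in WT, 79.8 and 73.7 in KO1, then 57.3 and 53.3 in KO2 and 94.5 and 98.6 in KO3. The order of the lines was that of its RNA, with no overlap with WT. It rose by 0.57 in KO3 (SE 0.08, adjusted p = 2.13e-08) and by 0.27 in KO1 (SE 0.09, adjusted p = 0.0152), and the KO1 call was lost with DESeq2 and without WT replicate 1, WT replicate 2 or KO1 replicate 1.

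Txn1 had 336 and 348 footprint CPM in WT, 425 and 404 in KO1, 337 and 350.1 in KO2, with 267 and 255 in KO3. KO1 was above and KO3 below WT, and KO2 overlapped with it. The change was 0.29 in KO1 (SE 0.06, adjusted p = 0.000145) and -0.39 in KO3 (SE 0.06, adjusted p = 4.55e-07). Both were smaller than in RNA, where they were 0.48 and -0.65. The TE test asks whether that gap is larger than the spread between libraries.

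Gstm1 had 45.3 and 44.4 footprint CPM in WT, 27.0 and 31.8 for KO1, 15.1 and 14.4 for KO2 and 50.1 and 46.2 for KO3. KO1 and KO2 were below WT, as in RNA, while the KO3 libraries lay above it. It fell by 0.67 in KO1 (SE 0.11, adjusted p = 6.16e-07) and by 1.60 in KO2 (SE 0.12, adjusted p = 1.03e-12), and in KO3 the value was 0.10 (adjusted p = 0.448).

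Hmox1 had 12.8 and 13.6 footprint CPM in WT, 7.40 and 9.35 in KO1, then 19.4 and 18.1 in KO2 and 11.8 and 11.9 in KO3. KO2 stood above WT and the other clones below it. In KO3 the footprint change of -0.16 (adjusted p = 0.51) missed the threshold that RNA passed. It fell by 0.75 in KO1 (SE 0.19, adjusted p = 0.00134) and rose by 0.51 in KO2 (SE 0.14, adjusted p = 0.0181). Both calls were lost with DESeq2, the first also without KO1 replicate 1 and the second also without WT replicate 1 or KO2 replicate 1.

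Srxn1 footprints were 3.76 and 3.77 CPM in WT, 7.93 and 6.73 in KO1, 4.65 and 4.16 in KO2, with 5.36 and 6.42 in KO3. Every clone library was above both WT libraries, as in RNA. The rise of 1.03 in KO1 passed (SE 0.26, adjusted p = 0.000629), except with DESeq2 and without KO1 replicate 1, and that of 0.63 in KO3 did not (adjusted p = 0.0539). Txnrd1 footprints were 79.4 and 79.2 CPM in WT, 102 in both KO1 libraries, 65.5 and 65.3 in KO2 and 80.2 and 70.3 in KO3, so that only KO3 overlapped with WT. They rose by 0.37 in KO1 (SE 0.08, adjusted p = 0.000203) and fell by 0.28 in KO2 (SE 0.08, adjusted p = 0.0181), the latter not with DESeq2 or without any 1 of the 4 replicates.

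Of the glutathione ligase subunits, Gclc passed the test in footprints and Gclm did not. Gclc footprints were 14.1 and 12.6 CPM in WT, 12.9 and 11.6 for KO1, 10.3 and 13.6 for KO2 and 8.30 and 9.36 for KO3, where alone they lay apart from WT. They fell by 0.62 in KO3 (SE 0.17, adjusted p = 0.0039), though not with DESeq2 or without WT replicate 1 or KO3 replicate 1. Gclm footprints were 41.9 and 47.8 CPM in WT, 41.5 and 53.8 for KO1, 41.6 and 46.1 for KO2 and 36.4 and 39.0 for KO3, again with only KO3 apart from WT (-0.24, adjusted p = 0.0581). G6pdx footprints were 32.5 and 37.9 CPM in WT, 39.7 and 42.6 in KO1, then 27.5 and 28.7 in KO2 and 40.1 and 38.9 in KO3, and no clone passed the test. Nqo1 had 10 and 5 footprint counts in WT, 42 and 15 in KO1, 8 and 9 in KO2 and 1 in each KO3 library. The KO1 value of 1.91 (SE 0.44, adjusted p = 6.07e-05) is of a gene that passed the filter only through KO1. From summed counts it was 9.22 times as high in WT as in KO3 (exact 95% interval 2.14 to 83.1).

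**Figure D3:**
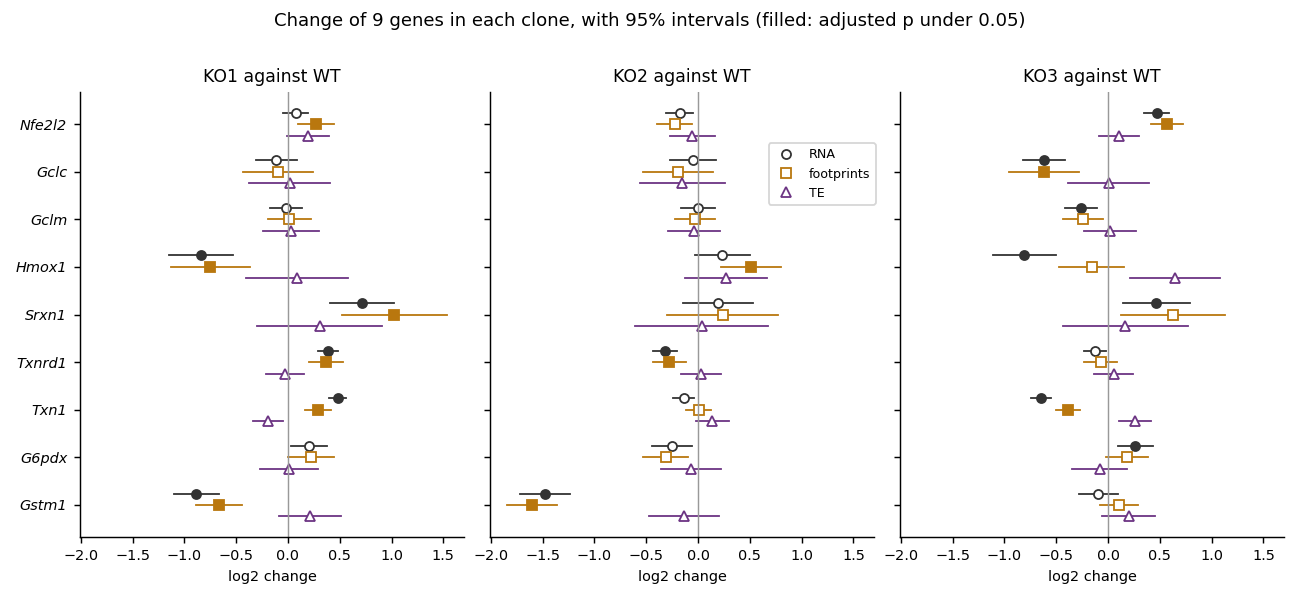
Log2 change of RNA, footprints and TE against WT on the horizontal axis for 9 members, 1 panel per clone, with 95% intervals; filled points have an adjusted p under 0.05. Nqo1 is left out because its KO3 libraries hold 1 and 0 RNA counts; the lowest values are those of Gstm1 in KO2 (-1.48 in RNA and -1.60 in footprints).

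The plot of changes by clone places the readouts side by side. TE, tested as the interaction of line and assay, asks whether footprints changed by more or less than RNA. No member was called in KO1, KO2 or KO3 by edgeR's quasi-likelihood test, where 0.146%, 0.0259% and 0.121% of genes were called. At an unadjusted p under 0.05 there were 1, 0 and 2 members, beside 2879 of 38614, 1797 of 38293 and 2446 of 38347 transcripts. DESeq2 also called 0 members in each clone.

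Txn1 had TE ratios of 1.45 and 1.49 in WT, 1.29 and 1.27 in KO1, 1.55 and 1.72 in KO2, with 1.71 and 1.82 in KO3. The 4 lines did not overlap except KO2 with KO3, and KO1 was the line below WT. The log2 change was -0.20 in KO1 (95% interval -0.34 to -0.05, adjusted p = 0.462), 0.14 in KO2 (adjusted p = 1) and 0.26 in KO3 (95% interval 0.11 to 0.41, adjusted p = 0.253). Between the clones the difference did pass the test, with an adjusted p of 0.000238. It did so under all 16 alternatives, though that with the longest coding sequence uses the same transcript of Txn1 and repeats the main fit.

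Hmox1 had TE ratios of 1.74 and 1.73 in WT, 1.81 and 2.08 for KO1, 2.24 and 1.95 for KO2 and 2.88 and 2.57 for KO3. All clone lysates were above WT, KO3 by the most. The change in KO3 was 0.65 (95% interval 0.21 to 1.08), with an adjusted p of 0.487, and thus did not pass over the whole table. For Gstm1 the ratios were 2.83 and 3.03 in KO1, then 2.34 and 2.14 in KO2 and 2.86 and 2.73 in KO3, beside 2.5 and 2.36 in WT. Of the 9 members plotted by lysate, Gclc had the widest gap between replicates, 0.528 and 0.880 in KO2.

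**Figure D4:**
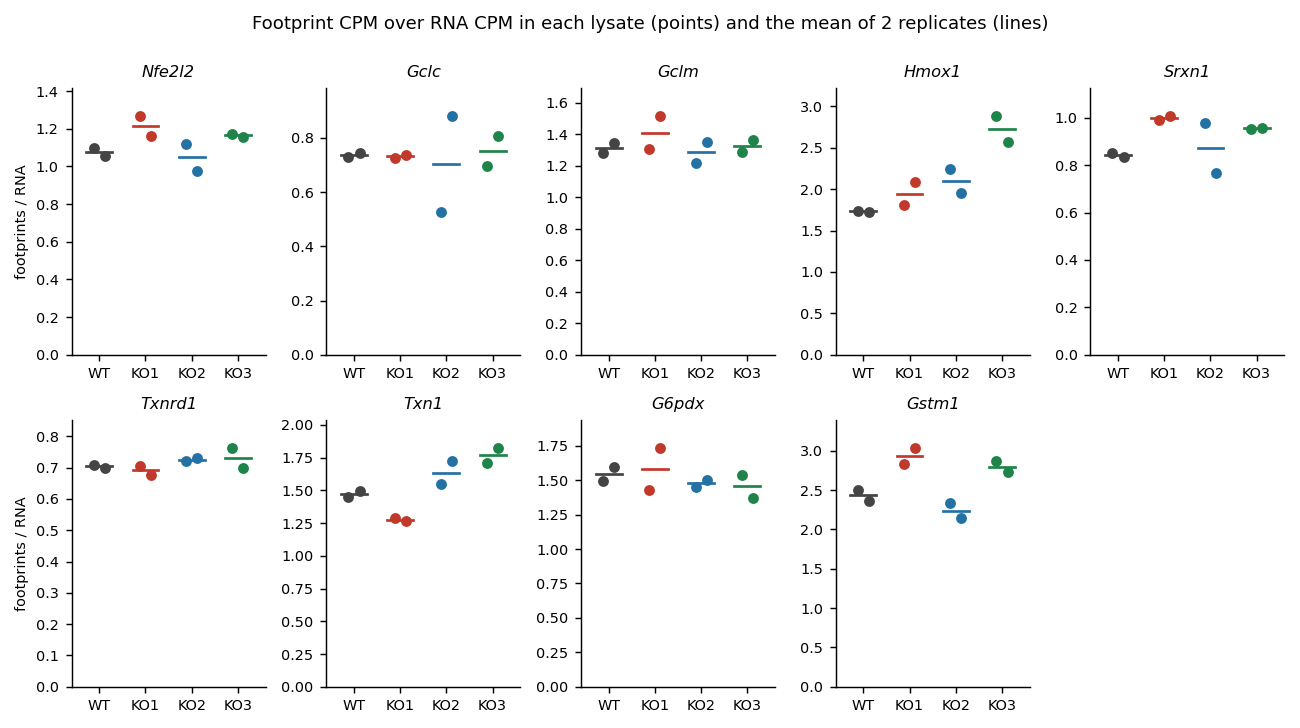
TE ratio (footprint CPM over RNA CPM of the same lysate) of 9 members on the vertical axis, 2 lysates per line, with the 4 lines along the horizontal axis. Points are lysates; Nqo1 is left out for its low counts, and Txn1 is lowest in KO1 (1.29 and 1.27) and highest in KO3 (1.71 and 1.82).

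The mean change of the 3 clones against WT was tested as 1 value, with each clone weighted equally. Its p-values measure the spread between replicate libraries and not that between clones. A mean can pass without a change in every clone. In RNA 4 of 10 members passed, beside 18.6% of genes. Gstm1 fell by 0.82 (SE 0.09, adjusted p = 1.69e-10), Hmox1 fell by 0.47 (SE 0.12, adjusted p = 0.00322), Gclc fell by 0.26 (SE 0.09, adjusted p = 0.0313) and Srxn1 rose by 0.46 (SE 0.13, adjusted p = 0.0138). For Srxn1 all 6 clone libraries lay above both WT libraries and for Gstm1 all 6 lay below them, a description with no share of all genes beside it. Hmox1 was above WT in KO2 and below it in KO1 and KO3, and Gclc overlapped with WT in KO1 and KO2. The call of Hmox1 was lost without WT replicate 2, that of Srxn1 with DESeq2 or without either WT replicate, and that of Gclc with DESeq2 and without any of 4 replicates. In footprints 1 of 10 passed, Gstm1 (-0.72, SE 0.09, adjusted p = 1.1e-10), beside 9.05% of genes. In TE edgeR called none, beside 0% of genes, and DESeq2 called 0. At an unadjusted p under 0.05 there were 0 members, beside 1776 of 39662 transcripts.

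Differences among the clones were the rule for these genes, as they were for most others. All 10 members differed among KO1, KO2 and KO3 in RNA, where 74.7% of genes did, and 9 of 10 in footprints, where 58.9% did. The exception was Gclm (adjusted p = 0.0631). Both counts include Nqo1. It passed the filter on low counts only through KO1 and KO2 in RNA, and only through KO1, where it is high, in footprints. Its differences are therefore given as a description. In TE it was 1 of 10, Txn1, beside 1.19% of genes.

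Other genes of the pathway were read from lists of 124 genes, chosen, as the members were, with earlier results of these data known. In RNA 69 of 113 tested passed in KO1 (34 higher and 35 lower), 38 of 111 in KO2 (16 and 22) and 63 of 111 in KO3 (26 and 37), beside the 46.7%, 19.9% and 44.0% of all genes given above. Their median changes were near 0, at 0.00, -0.02 and -0.04. In footprints 54, 25 and 52 of 109 passed, beside 26.5%, 11.0% and 29.0% of all genes. These counts include genes that passed the filter on low counts through 1 line only. In RNA they were Bach2 and Gsta3 in KO1, Gstm6 and Gstm7 in KO2, and Gsta4, Gstk1, Gstm6, Glrx and Ephx2 in KO3. In footprints they were Chac1, Ggt7 and Gstm7 in KO1 and Gstm6, Gstm7 and Gstt1 in KO2. For KO3 footprints they were Ggct, Oplah, Gstk1, Gstm7 and Ephx2. In TE edgeR called 0 in each clone. At an unadjusted p under 0.05 there were 8 of 114, 4 of 112 and 7 of 112, beside 2879 of 38614, 1797 of 38293 and 2446 of 38347 transcripts. Among the clones TE of 3 of 114 differed, beside 1.19% of genes, and these were Fth1 and Ftl1, the ferritin chains, and Gstm6, named after their values were seen. Gstm6 had 0 to 24 counts per RNA-seq library and shares coding runs with Gstm1, so its TE is uncertain in the same way.

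**Figure D5:**
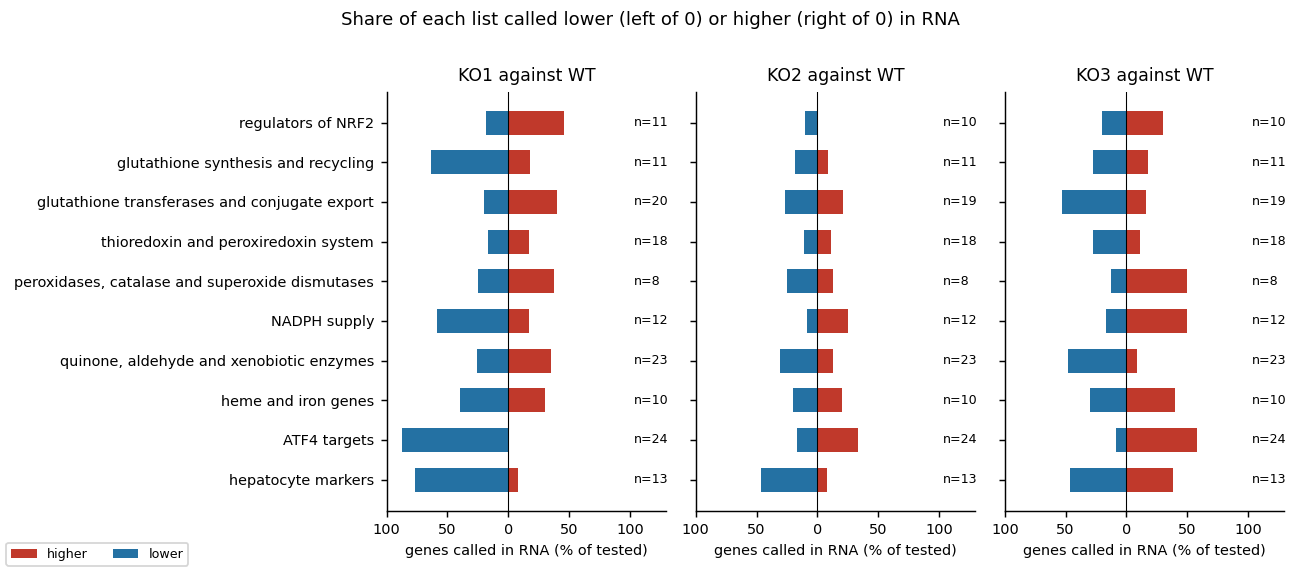
Share of the genes of each pathway list, of the ATF4 targets and of the hepatocyte markers called higher or lower in RNA against WT, in percent of those tested (n), 1 panel per clone. Bars to the right are genes called higher and bars to the left genes called lower; the ATF4 targets stand out in KO1, with 0 of 24 higher and 21 of 24 lower.

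Among the regulators of NRF2, 5 of 11 rose and 2 fell in KO1, 1 of 10 fell in KO2 (Mafk, chosen for mention after its values were seen), and 3 of 10 rose and 2 fell in KO3. Of the 7 calls in KO1, 1 (Bach2) was of a gene that passed the filter on low counts through 1 line only. Of all genes 23.0% were called higher and 23.7% lower in KO1, with 10.9% and 8.96% for KO2 and 21.8% and 22.3% for KO3. Keap1, the inhibitor of NRF2, rose in KO3 (0.42, SE 0.08, adjusted p = 5.6e-05) and passed neither in KO1 (adjusted p = 0.991) nor in KO2 (0.08, adjusted p = 0.641). Bach1 rose in KO3 as well (0.31, adjusted p = 0.0157), where Nfe2l2 rose and Hmox1 fell. Mafg, a small MAF partner, rose in KO1 (0.45, adjusted p = 0.000137), and so did the related factor gene Nfe2l1 (0.21, adjusted p = 0.00108), with a difference among the clones that passed the test for both (adjusted p = 3.97e-05 for Mafg and 0.000328 for Nfe2l1). Cul3 rose in KO1 by 0.20 and fell by 0.26 in KO3. Sqstm1, an adaptor that draws KEAP1 into autophagy, fell by 0.32 in KO1 and by 0.18 in KO3.

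Of 11 glutathione synthesis and recycling genes, 7 were called lower and 2 higher in KO1, beside 23.7% and 23.0% of all genes. KO2 had 1 higher and 2 lower, beside 10.9% and 8.96%, and KO3 2 and 3, beside 21.8% and 22.3%. Cth, which makes cysteine from cystathionine, fell by 2.31 in KO1 (SE 0.25, adjusted p = 6.42e-13), and Chac1, which degrades glutathione, fell there by 2.08 (SE 0.29) and rose in KO3 by 0.62. Gss, glutathione synthetase, fell by 0.22 in KO1 and by 0.76 in KO2. Oplah, which recycles 5-oxoproline, fell by 1.52 in KO3. Ggt7 rose in KO1 (1.85) and KO2 (0.93) and fell by 1.25 in KO3.

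Of the transferases and conjugate exporters, 8 of 20 rose and 4 fell in KO1, beside 23.0% and 23.7% of all genes. In KO2 4 of 19 rose and 5 fell, beside 10.9% and 8.96%, and in KO3 3 of 19 rose and 10 fell, beside 21.8% and 22.3%. Some of these calls were of genes that passed the filter on low counts through 1 line only. They were 1 in KO1 (Gsta3), 2 in KO2 (Gstm6 and Gstm7) and 3 in KO3 (Gsta4, Gstk1 and Gstm6), and they are given as a description. Gstm7, another mu-class gene, fell in all 3 clones, from 4.42 and 5.09 CPM in WT to between 0.307 and 0.700 CPM in the clone libraries, with log2 changes of -2.90, -3.76 and -3.04. It shares no 30-base run with Gstm1. In KO2 it passed the filter on low counts only through WT. Gstk1, the kappa-class transferase, rose in KO1 by 0.69 and had a change of -4.48 in KO3 (SE 0.39, adjusted p = 3.12e-19), where it passed the filter only through WT. Mgst3, a microsomal transferase, rose in KO2 (0.48) and KO3 (1.04). Gsta3, an alpha-class gene, had a change of 2.44 in KO1 (adjusted p = 3.51e-05) but was too low to be tested in KO2 and KO3 and passed the filter only through KO1. Gstt1, of the theta class, rose in KO2 by 1.06 (adjusted p = 0.0232).

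In the thioredoxin and peroxiredoxin list 3 of 18 rose and 3 fell in KO1, where 23.0% of all genes rose and 23.7% fell. In KO2 2 rose and 2 fell, beside 10.9% and 8.96%, and in KO3 2 rose and 5 fell, beside 21.8% and 22.3%. The mitochondrial peroxiredoxin gene Prdx3 rose by 0.66 in KO1 and fell by 0.44 in KO3, as Txn1 did, with 0.06 in KO2 (adjusted p = 0.657). Txnip, whose product binds and inhibits thioredoxin, fell by 0.90 in KO2 and by 0.59 in KO3. Prdx6, another peroxiredoxin gene, rose in KO2 by 0.28 and fell by 0.24 in KO3. Sesn2, which encodes sestrin, fell by 0.56 in KO1 and by 0.60 in KO2 and rose in KO3 by 0.64, and the glutaredoxin gene Glrx, which passed the filter there only through WT, had a change of -1.04 in KO3 (adjusted p = 0.027).

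Of 8 peroxidase, catalase and dismutase genes 3 rose and 2 fell in KO1, 1 rose and 2 fell in KO2, and 4 rose and 1 fell in KO3. The shares of all genes were 23.0% and 23.7% for KO1, 10.9% and 8.96% for KO2 and 21.8% and 22.3% for KO3. Gpx4, the phospholipid hydroperoxidase, rose by 0.63 in KO1 and by 0.22 in KO3, Selenop, a secreted selenoprotein of liver, fell by 1.76 in KO1 and by 0.34 in KO2 and rose in KO3 by 0.36, and Cat, catalase, rose in KO3 by 0.75. Sod1, the cytosolic dismutase gene, rose in KO2 by 0.17 and in KO3 by 0.31, and Gpx1, a glutathione peroxidase gene, rose in KO1 by 0.36 and fell by 0.44 in KO3.

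Of 12 NADPH supply genes 7 were called lower and 2 higher in KO1, beside 23.7% and 23.0% of all genes, and 2 lower and 6 higher in KO3, beside 22.3% and 21.8%. KO2 had 1 lower and 3 higher, beside 8.96% and 10.9%. H6pd, the enzyme of the endoplasmic reticulum that parallels G6pdx, rose in KO1 (0.62) and KO2 (0.41) and fell by 1.64 in KO3 (SE 0.13, adjusted p = 2.98e-15), which was not the direction of G6pdx there. Taldo1, transaldolase, fell by 0.61 in KO1. Nadk, the NAD kinase that makes NADP, fell by 0.25 in KO1 and by 0.25 in KO2 and rose in KO3 by 0.27, and Pgls, the lactonase of the pentose phosphate pathway, fell by 0.20 in KO1 and rose in KO3 by 0.50.

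Quinone, aldehyde and xenobiotic enzyme genes were called 8 higher and 6 lower of 23 in KO1, 3 higher and 7 lower in KO2 and 2 higher and 11 lower in KO3. Beside them stand 23.0% and 23.7% of all genes for KO1, 10.9% and 8.96% for KO2 and 21.8% and 22.3% for KO3. Ephx1, microsomal epoxide hydrolase, rose in KO1 by 1.59 (SE 0.07, adjusted p = 1.01e-26), and the soluble hydrolase gene Ephx2 had 48 and 61 raw counts in WT and 1 and 6 in KO3, a comparison it entered only through WT. Aldh2, mitochondrial aldehyde dehydrogenase, fell in all 3 clones by 0.47, 0.49 and 0.46. Akr1c13, an aldo-keto reductase gene, also fell in all 3, by 0.57, 0.31 and 0.22. Aldh1a1, which oxidises retinaldehyde, rose in KO3 by 0.88 (SE 0.04, adjusted p = 4.8e-24). Osgin1 rose in KO1 by 0.39 and in KO2 by 1.29 and fell by 1.29 in KO3.

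Of 10 heme and iron genes, the group of Hmox1, 3 rose and 4 fell in KO1, 2 rose and 2 fell in KO2, and 4 rose and 3 fell in KO3, against the same shares of all genes (23.0% and 23.7%, then 10.9% and 8.96%, then 21.8% and 22.3%). Blvrb, biliverdin reductase B, fell by 0.54 in KO1 and by 0.27 in KO2 and rose in KO3 by 0.71, where Hmox1 fell, and Slc40a1, the iron exporter ferroportin, fell by 0.51 in KO1 and rose in KO2 by 0.50 and in KO3 by 0.85. Abcb6, a porphyrin transporter gene, rose in KO1 by 0.73, and the heme transporter gene Slc48a1 rose in KO1 by 0.33 and fell by 0.88 in KO3.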

How the data were processed

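The authors trimmed reads with fastp 0.21.0, removed noncoding RNA, aligned the rest to mm10 with GENCODE vM23 using STAR 2.7.0a and counted A-sites (offset 15 nt for RNA-seq and most footprint lengths) on each coding sequence without its first and last 5 codons. The deposited values were raw counts per transcript, not normalized or pooled, and a read that fits several transcripts is counted on each. The labels name polyA RNA, whereas the extraction protocol and the paper's methods name rRNA depletion, and RNA levels and TE may depend on which holds.

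Groups were taken from the labels, and edgeR 4.0.16 (R 4.3.3) was run with TMM factors within each assay, filterByExpr and quasi-likelihood tests on all transcripts, for each clone with WT and for all libraries together. Calls are Benjamini-Hochberg adjusted p-values under 0.05. TE changes are the interaction of line and assay. The test code was checked on simulated data. RNA-seq and Ribo-seq of 1 lysate are paired by the protocol, and their replicate deviations correlated across 4014 genes with r of 0.237 in WT, 0.283 in KO1, 0.119 in KO2 and 0.111 in KO3. Alternatives were DESeq2 1.42.0 and its size factors, filters on low counts, 1 transcript per gene and the transcript with the longest coding sequence. Others were all libraries in 1 fit, replicate and lysate blocks and each replicate left out.

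Besides members, the text names 6 regulators, the 5 genes most like Nqo1 and, per list and clone, the largest called rise and fall in RNA without overlap with WT and with at least 10 counts in both libraries of either line; some others were chosen after their values were seen. Members and lists were chosen with earlier results of these data known. Positions are from GENCODE on GRCm38 and promoters from RefSeq.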

Additional observations from a re-analysis of the deposited data

Results flagged for a closer look

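The clones all lack exon 5, and their changes against WT differed, by a test of the difference among KO1, KO2 and KO3 itself (edgeR's quasi-likelihood test, Benjamini-Hochberg adjusted p over all transcripts). All 10 members were picked out for RNA, 9 for footprints and 1 for TE, beside 74.7%, 58.9% and 1.19% of all genes, so that a difference among clones was the common case.

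In RNA the adjusted p was 4.27e-23 for Txn1, 2.9e-15 for Txnrd1, 3.34e-14 for Gstm1, 1.21e-11 for Nfe2l2 and 3.62e-10 for Nqo1. It was 2.95e-09 for Hmox1, 3.11e-06 for G6pdx, 1.96e-05 for Gclc, 0.00532 for Gclm and 0.0102 for Srxn1. In footprints it was 6.82e-25 for Gstm1, 2.18e-16 for Txn1, 1.92e-14 for Nfe2l2, 5.06e-11 for Nqo1 and 1.71e-10 for Txnrd1. It was 8.41e-10 for Hmox1, 9.59e-06 for G6pdx, 0.00848 for Srxn1 and 0.0214 for Gclc. Nqo1 passed the filter on low counts only through KO1 and KO2 in RNA, and only through KO1, where it is high, in footprints. Its values are given as a description.

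In TE it was 0.000238 for Txn1. The change of Txn1 against WT was below 0 in KO1 (-0.20) and above 0 in KO2 (0.14) and KO3 (0.26), none of them past the threshold alone. Txn1 shares coding runs with Txn-ps1, and the part of shared reads in its TE was not tested. The RNA difference of Gclm was lost without KO3 replicate 1, and that of Srxn1 with DESeq2 and without KO1 replicate 1 or KO2 replicate 1. The footprint differences of Gclc and Srxn1 were lost with DESeq2 and without KO1 replicate 1, that of Gclc also without KO3 replicate 1.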

How the results depend on the processing

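No member's called change reversed its direction under any alternative. The alternative with the longest coding sequence uses the main transcript for every member but Gstm1. Its values for the other members repeat the main fit and count below as kept. Of 1974 values of single members under the alternatives, 1892 kept their side of the threshold, 37 newly passed it and 45 no longer did. With DESeq2, 4 members in place of 7 were called for footprints in KO1, 1 in place of 3 for footprints in KO2 and 2 in place of 4 for the mean RNA change. With the replicate block, the count rose from 2 to 5 for RNA in KO2, where Nfe2l2, Txn1 and G6pdx newly passed. For footprints it rose from 3 to 5 in KO2 (Nfe2l2 and G6pdx) and in KO3 (Gclm and Srxn1). For the mean footprint change it rose from 1 to 3 (Nfe2l2 and Srxn1). RNA of G6pdx in KO1, RNA of Txnrd1 in KO3 and the mean RNA change of Txn1 also newly passed under this block. Deviations of WT and clone replicates of the same number correlated with r of 0.299 for KO1, 0.130 for KO2 and 0.0998 for KO3 in RNA, and 0.2002, 0.143 and 0.0969 in footprints. The numbers were not taken as a pairing, since no label says what they share. All of these r were positive, and that of KO1 in RNA was above the 0.283 of its own lysates. An effect of the replicate number is thus left out of the main tests, and the calls that moved under the block depend on that choice. With all libraries in 1 fit, 4 members were called for RNA in KO2. With at least 10 counts in every library, and with 1 transcript per gene, 3 were called for the mean footprint change. Leaving out 1 replicate gave 4 to 7 members for footprints in KO1 (4 without KO1 replicate 1), 1 to 2 for footprints in KO2 (1 without KO2 replicate 1), 5 to 9 for RNA in KO3 (5 without WT replicate 2), 2 to 5 for the mean RNA change (2 without either WT replicate) and 1 to 3 for the mean footprint change (3 without KO1 replicate 2). Where 1 library remained in a line, its spread was taken to be that of the others. No member was called for TE in any clone or for the mean, under any alternative.

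Over all transcripts, TE calls in KO1 numbered 65, with 253 under the replicate block, 295 under the lysate block, 11 with 1 transcript per gene and 31 without WT replicate 1. In KO3 they numbered 36, with 17 by DESeq2, 12 with 1 transcript per gene and 3 without WT replicate 2. The difference in TE among clones was called for 419, with 742 and 986 under the blocks, 123 with 1 transcript per gene and 191 without KO1 replicate 1. RNA calls by DESeq2 numbered 9679 in KO1 (15262 by edgeR), 3019 in KO2 (5762) and 8780 in KO3 (13876), and footprint calls 2062 (7350), 657 (2812) and 2733 (7990). The lysate block changed no call of a member. Depth limits Nqo1 most, with at most 15 counts in a WT library.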

Other observations

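Some cysteine and glutathione genes are also targets of ATF4, the factor of the amino acid response. The summed RNA of that list was 2047 and 1962 CPM in WT, 1200 and 1188 for KO1, 2015 and 1943 for KO2 and 2428 and 2412 for KO3. KO1 was lowest and KO3 highest, with no overlap with WT in either. In KO1 21 of 24 targets fell and 0 rose, where 23.7% of genes were called lower, with a median change of -0.69. In KO2 8 rose and 4 fell, beside 10.9% and 8.96% of genes, and in KO3 14 rose and 2 fell, beside 21.8% and 22.3%. Trib3, a pseudokinase gene, fell by 2.82 in KO1 and rose by 1.32 in KO3. Atf4 itself fell by 0.94 in KO1 and rose by 0.28 in KO2 and 0.21 in KO3. Slc7a11, the cystine transporter of both programmes, fell by 0.54 in KO1 and by 0.39 in KO2. The list shares Chac1, Cth, Sesn2 and Slc7a11 with the pathway lists of the report. The part of ATF4 in the changes of the glutathione genes was not tested.

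Nqo1 is also a target of the aryl hydrocarbon receptor. Of 5 tested genes of that list, all were called in KO1, Nqo1 and Ugt1a6a higher and Ahr, Cyp1a1 and Tiparp lower, beside 46.7% of genes. In KO2 edgeR called none, beside 19.9%, with 1 at an unadjusted p under 0.05, beside 10143 of 37472 transcripts. In KO3 Cyp1a1 was called higher and Nqo1 lower, beside 44.0%. Nqo1 entered these tests only through KO1 in the first case and WT in the last. The part of the receptor in the level of Nqo1 was not tested.

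Of 13 hepatocyte markers tested, 10 were called lower and 1 higher in KO1, where 23.7% of all genes were lower. KO2 had 6 lower and 1 higher, with 8.96% of genes lower, and KO3 6 lower and 5 higher, with 22.3%. The counts in KO1 and KO3 include Ambp, which passed the filter on low counts through 1 line only in each. Alb fell by 1.5 in KO1 and by 0.63 in KO2 and rose by 1.25 in KO3, and Hnf4a fell by 1.95 in KO1. Their part in the changes of the antioxidant genes was not tested.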
